A study of Mus musculus with 29 samples.

Results

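A set of 32 genes of homologous recombination and the Fanconi anaemia pathway were followed in mouse embryos made by nuclear transfer and in the donor cell type. The genes were fixed by symbol as Brca1, Bard1, Palb2, Brca2, the recombinase paralogs Rad51b, Rad51c, Rad51d, Xrcc2 and Xrcc3, Rad52, Rad54l, Mre11a, Rad50, Nbn, Rbbp8, Exo1, Dna2, Blm, Fanca, Fancb, Fancc, Fance, Fancf, Fancg, Fancl, Fancm, Fancd2, Fanci, Brip1, Slx4, Mus81 and Eme1. All 32 were found among the 24448 gene rows of the count table.

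Homologous recombination repairs a DNA break by copying the intact sister chromatid, and it also protects and restarts stalled replication forks. The MRE11-RAD50-NBN complex with CtIP (encoded by Rbbp8) starts to trim the broken end, and EXO1 or DNA2 with the BLM helicase extends the trimming. BRCA1 with BARD1, PALB2 and BRCA2 then loads the recombinase on the single strand, assisted by the recombinase paralogs. The Fanconi pathway repairs crosslinks between the strands and guards stalled forks: a core complex with the ubiquitin ligase FANCL marks FANCD2 and FANCI, after which the nuclease scaffold SLX4 and nucleases such as MUS81-EME1 act. Transcripts of many of these genes are made in proliferating cells and are also stored in the oocyte, and the first cleavage division runs largely on that store.

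Each embryo was one library made from an enucleated oocyte of the BDF1 strain that had received a cumulus cell nucleus. After activation for 6 h in KSOM medium with 10 mM strontium, CB and EGTA, 8 embryos were kept in medium with 10 uM hydroxyurea (HU) until 24 h, and 9 control embryos had no HU. All 17 embryos were 2-cell embryos collected at 28 h, so both groups share the nuclear transfer, the donor cell type and the activation. The third group was 12 single cumulus cells of the same strain, the somatic cells around the oocyte. HU inhibits ribonucleotide reductase, lowers the supply of nucleotides and slows replication forks. The labels name no animal, day or culture, so p-values rest on the variation among these 17 embryos, which may be technical, and the 12 cells count as 1 sample without a test.

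Gene counts ranged from 2442541 to 3757492 in HU embryos, from 317195 to 4051494 in cumulus cells and from 1801261 to 3472116 in control embryos. All 14 oocyte markers were detected in every embryo, at a summed 6804 to 17499 CPM (gene counts scaled to a common library total) in HU embryos, 0 to 53.8 CPM in cumulus cells and 11946 to 19483 CPM in control embryos. The 16 cumulus and granulosa markers summed to 61.4 to 178 CPM in HU embryos, 69.8 to 9453 CPM in cumulus cells and 30.3 to 172 CPM in control embryos. Cumulus cell 2 stood apart, with the 69.8 CPM of cumulus markers, counts for all 6 immune markers (165 CPM in sum) and 86.6% of its gene counts on Rn45s, the 45S ribosomal precursor. Rn45s took 49.3% to 86.6% of counts in cumulus cells, against 15.2% to 28.98% in HU embryos and 16.2% to 32.5% in control embryos. The 10 markers of the 2-cell stage summed to 141 to 2669 CPM in HU embryos and 245 to 2681 CPM in control embryos. The part of the oocyte and 2-cell levels in the results below was not tested, except where a value is given.

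Promoter windows from RefSeq (GRCm38.p6, 250 bases before to 50 bases after the transcript start) were matched for 25 of the 32 genes. E2F factors bind near the starts of many S-phase genes, and 4 words of their recognition sequence (TTTCCCGC, TTTGGCGC, TTTCGCGC and TTTGCCGC, either strand) were searched. They occurred in 4 of the 25 genes (16%), against 2.61% of 27025 genes with a window: Brca2, Bard1, Rad51c and Fancg. These windows are shown because their genes span the loading complex, the paralogs and the Fanconi core, and those of Eme1 and Mus81 because both nuclease subunits lead the HU comparison below. Capitals mark the E2F words and the cell cycle homology words (TTTGAA or TTCGAA, either strand), which occurred in 3 of the 25 genes (12%) and in 21.7% of genes with a window.
Brca2 (chr5:150522371-150522670, plus strand): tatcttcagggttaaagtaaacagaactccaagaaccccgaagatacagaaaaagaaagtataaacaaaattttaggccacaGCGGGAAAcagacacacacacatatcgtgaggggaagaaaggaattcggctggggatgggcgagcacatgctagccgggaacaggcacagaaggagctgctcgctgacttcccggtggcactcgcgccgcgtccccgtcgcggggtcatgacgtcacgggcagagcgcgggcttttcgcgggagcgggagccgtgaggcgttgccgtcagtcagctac
Bard1 (chr1:71102923-71103222, minus strand): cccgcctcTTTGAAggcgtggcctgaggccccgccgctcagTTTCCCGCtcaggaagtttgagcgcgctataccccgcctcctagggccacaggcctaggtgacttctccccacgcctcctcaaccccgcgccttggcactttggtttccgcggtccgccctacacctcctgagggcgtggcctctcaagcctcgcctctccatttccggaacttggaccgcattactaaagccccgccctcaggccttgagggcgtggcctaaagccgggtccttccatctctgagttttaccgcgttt
Rad51c (chr11:87404905-87405204, minus strand): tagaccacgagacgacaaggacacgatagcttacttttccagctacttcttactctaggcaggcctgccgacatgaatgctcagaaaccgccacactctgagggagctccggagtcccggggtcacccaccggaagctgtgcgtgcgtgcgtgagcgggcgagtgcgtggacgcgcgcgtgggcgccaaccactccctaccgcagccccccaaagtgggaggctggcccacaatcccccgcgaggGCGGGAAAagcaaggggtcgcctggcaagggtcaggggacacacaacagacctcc
Fancg (chr4:43010252-43010551, minus strand): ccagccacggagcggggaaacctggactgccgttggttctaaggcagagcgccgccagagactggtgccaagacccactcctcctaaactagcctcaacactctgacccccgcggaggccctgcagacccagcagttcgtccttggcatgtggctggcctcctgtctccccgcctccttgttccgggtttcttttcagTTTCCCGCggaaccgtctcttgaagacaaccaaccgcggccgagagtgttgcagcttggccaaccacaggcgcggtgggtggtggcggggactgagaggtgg
Eme1 (chr11:94653694-94653993, minus strand): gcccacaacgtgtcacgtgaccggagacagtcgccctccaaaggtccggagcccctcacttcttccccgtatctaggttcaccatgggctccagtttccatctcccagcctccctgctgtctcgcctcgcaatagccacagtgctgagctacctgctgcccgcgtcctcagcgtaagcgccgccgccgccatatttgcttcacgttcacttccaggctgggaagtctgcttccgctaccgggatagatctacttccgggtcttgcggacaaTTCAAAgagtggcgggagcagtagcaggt
Mus81 (chr19:5488330-5488629, minus strand): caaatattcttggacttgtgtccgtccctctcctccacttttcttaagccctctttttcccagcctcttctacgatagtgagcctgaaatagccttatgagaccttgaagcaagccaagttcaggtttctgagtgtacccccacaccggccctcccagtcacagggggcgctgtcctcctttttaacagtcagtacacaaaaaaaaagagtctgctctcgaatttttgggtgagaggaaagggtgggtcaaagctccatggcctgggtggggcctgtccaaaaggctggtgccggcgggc

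The E2F word stood 168 bases before the start in Brca2, 209 bases before it in Bard1, 5 bases before it in the shown window of Rad51c and 52 bases before it in Fancg. Bard1 also held a cell cycle homology word 242 bases before the start, and Eme1 held one 21 bases after it. No E2F word was in the windows of Eme1 or Mus81. The word CCAAT, either strand, was in 15 of the 25 genes (60%), against 41.1% of genes with a window, and the ETS word CCGGAAG was in 5 (20%), against 9.93%. The median GC content was 59.8% over the 28 windows of the 25 genes, against 52.7% over all 32851 windows. A word match is a description of these letters, and binding was not measured.

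All 32 genes were detected in most single embryos: 31 or 32 had a count in each HU embryo and likewise in each control embryo. Levels are first compared between genes as FPKM, the deposited value per length of gene. Brca2, which carries the recombinase to the single strand, was highest at 29.8 ± 5.89 FPKM in HU embryos and 32.0 ± 4.80 FPKM in control embryos (SD, n = 8 and 9). Rbbp8 followed at 25.6 ± 3.27 FPKM in HU embryos and 25.2 ± 8.15 FPKM in control embryos. The long-range nuclease gene Exo1 had 16.0 ± 2.11 FPKM in HU embryos and 16.9 ± 6.06 FPKM in control embryos. The next in the control embryos were Rad50 (16.2 FPKM), the translocase gene Rad54l (14.9 FPKM), Dna2 (13.5 FPKM) and Mus81 (13.3 FPKM).

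At the low end, Brip1, a helicase gene of the BRCA1 and Fanconi pathways, had 1.90 ± 1.04 FPKM in HU embryos and 1.88 ± 1.15 FPKM in control embryos. Bard1, the partner of BRCA1, had 0.528 ± 0.587 FPKM in HU embryos and 0.872 ± 0.954 FPKM in control embryos. Fancf, an adaptor of the core complex, had 2.04 ± 2.15 FPKM in HU embryos and 0.743 ± 1.04 FPKM in control embryos. The control mean of Fancf is an average over embryos of which 3 had no count. Along this order only 1 of 31 neighbouring pairs, Rbbp8 and Exo1, lay further apart than the larger of their 2 SDs. The SD is the spread of single embryos, and whether the means of neighbours differ was not tested. The order of close neighbours is therefore not read as a result. In HU embryos the order was alike at the top, with Brca2 and Rbbp8 first, while Mus81 ranked 3 and Eme1 ranked 6.

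**Figure D1:**
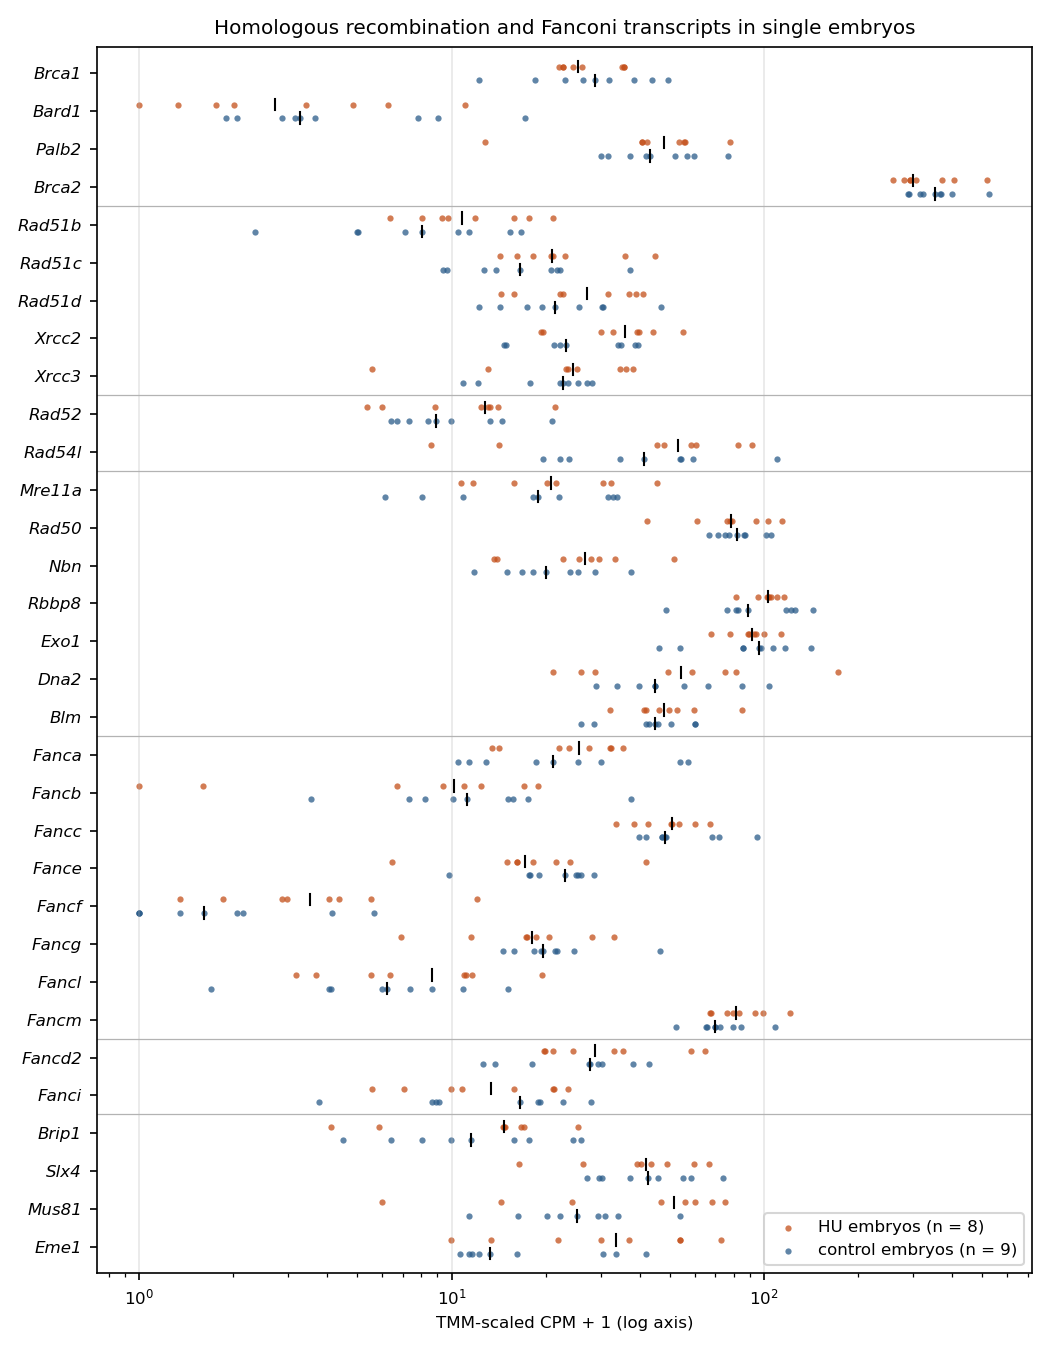
Each point is 1 embryo, HU (n = 8) above control (n = 9) for each gene, placed by TMM-scaled CPM plus 1 on a log axis; black ticks are medians and grey lines separate the roles. Brca2 lies far right of the other 31 genes in both groups, and the ranges of the 2 groups overlap for every gene.

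Embryos with and without HU were compared to see whether the drug changed these transcripts by the 2-cell stage. None of the 30 genes that passed the filter on low counts had an edgeR quasi-likelihood adjusted p under 0.05, and neither did any of the 11476 genes tested (0%). At an unadjusted p under 0.05 stood 1 of the 30, Eme1, where 5.85% of all genes tested did (3.81% higher and 2.04% lower in HU embryos), so the count is near its background. DESeq2 called 3 genes in all and none of these 30, and limma-voom called 0 genes. The fitted log2 fold change (HU over control) was above 0 in 18 of the 30 (60%), against 53.6% of all genes, with a median of 0.15 against 0.04. With ERCC spike-in counts as library sizes, 28 of the 30 were above 0, all but Fancb and Fancg, where 69.4% of all genes were. This scaling moved the median of all genes to 0.19, against 0.25 for the 30. The summed level of the 32 genes was 1401 ± 173 CPM in HU embryos and 1366 ± 178 CPM in control embryos (SD, n = 8 and 9). Fold changes below are on the log2 scale with their SE, levels are TMM-scaled CPM as lowest, median and highest embryo, and the ranges of the 2 groups overlapped for all 32 genes. Gene counts per spike-in count were 11.6 to 24.1 in HU embryos and 10.8 to 19.2 in control embryos. The embryos are labelled as 2-cell and their cells were not counted in these data. The ranges of this ratio overlap, and a difference between the groups was not tested. Cell number, RNA per cell and the spike-in added to each library cannot be told apart in it.

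The loading complex had nearly equal levels in the 2 groups, with fold changes just below 0 that turned above 0 under spike-in scaling. Brca2 had 258, 300 and 518 CPM in HU embryos and 288, 351 and 527 CPM in control embryos. Only 2 HU embryos lay below the lowest control, and the log2 fold change of Brca2 was -0.07 ± 0.16, with a 95% interval of -0.40 to 0.25. Brca1, the ubiquitin ligase that promotes trimming and recruits PALB2, had 21.1, 24.4 and 34.7 CPM in HU embryos and 11.3, 27.9 and 48.3 CPM in control embryos. All 8 HU embryos fell inside the control range, and the log2 fold change of Brca1 was -0.11 ± 0.28. Palb2, the bridge between BRCA1 and BRCA2, had 11.8, 47.0 and 77.1 CPM in HU embryos and 29.2, 42.2 and 75.8 CPM in control embryos. HU embryo 4 gave the low Palb2 value, and the fold change was -0.0047 ± 0.28. Bard1 did not pass the filter, with 0, 1.71 and 10.0 CPM in HU embryos and 0.901, 2.27 and 16.2 CPM in control embryos.

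The 5 recombinase paralogs, which help to build and steady the recombinase filament, all had a fitted fold change above 0, between 0.21 and 0.51 with a median of 0.38. The sign was the same under each of the 27 other settings run, but none of the 5 had an unadjusted p under 0.05 in any of them. These settings refit the same embryos, and how many of all genes kept their sign was not computed. Rad51b had 5.37, 9.83 and 20.1 CPM in HU embryos and 1.35, 7.06 and 15.7 CPM in control embryos (log2 fold change 0.51 ± 0.44). Rad51c, part of both paralog complexes, had 13.3, 19.9 and 43.8 CPM in HU embryos and 8.42, 15.6 and 36.4 CPM in control embryos (0.44 ± 0.34). In both genes 6 of 8 HU embryos lay above the control median. Xrcc2 had 18.3, 35.0 and 54.2 CPM in HU embryos and 13.7, 22.3 and 38.6 CPM in control embryos (0.38 ± 0.29), with 3 HU embryos above the highest control. For Xrcc3 (0.25 ± 0.34) and Rad51d (0.21 ± 0.31), too, 6 of 8 HU embryos exceeded the median of the controls. Xrcc3 shares 12 exon bases with Klc1 on the other strand, and Klc1 had a log2 fold change of 0.67 ± 0.27. Each interval reached below 0, from -0.36 to 1.38 for Rad51b and from -0.18 to 0.94 for Xrcc2.

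The 2 genes for annealing and strand exchange stood close to 0. Rad52, whose product anneals single strands, had 4.35, 11.8 and 20.4 CPM in HU embryos and 5.41, 7.95 and 20.0 CPM in control embryos (0.15 ± 0.40). Rad54l, a translocase that acts with the recombinase filament, had 7.57, 52.0 and 90.5 CPM in HU embryos and 18.6, 40.4 and 109 CPM in control embryos (0.14 ± 0.41). Rad54l ranged widely in both groups, with 2 HU embryos below the lowest control and none above the highest.

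Of the 7 end resection genes, 5 had a fitted fold change above 0 and 2 below, with a median of 0.20. Rad50, the ATPase that tethers broken ends, had 41.2, 77.4 and 113 CPM in HU embryos and 65.8, 81.1 and 105 CPM in control embryos (-0.05 ± 0.19). Rbbp8 had 80.4, 103 and 115 CPM in HU embryos and 47.7, 87.7 and 143 CPM in control embryos (0.05 ± 0.19). Exo1 had 66.7, 90.5 and 112 CPM in HU embryos and 45.3, 95.5 and 141 CPM in control embryos (-0.03 ± 0.21). For Rbbp8 and Exo1 all 8 HU embryos lay inside the control range. The nuclease gene Mre11a (0.22 ± 0.39), the damage adaptor gene Nbn (0.33 ± 0.31) and the helicase gene Blm (0.21 ± 0.23) had higher medians in HU embryos, and 5, 6 and 5 of 8 HU embryos exceeded the control median. Dna2, a nuclease and helicase, had 20.1, 53.2 and 171 CPM in HU embryos and 27.9, 43.9 and 103 CPM in control embryos (0.20 ± 0.37). HU embryo 7 alone lay above the highest control for Dna2, and 3 HU embryos lay below the lowest control.

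The Fanconi core complex differed in sign among its genes, with a fold change below 0 in 5 of the 7 tested and a median of -0.10 (only Fancb and Fancg stayed below 0 under spike-in scaling). Fancc (-0.19 ± 0.22), Fance (-0.10 ± 0.33), Fanca (-0.10 ± 0.37), Fancg (-0.24 ± 0.33) and Fancb (-0.57 ± 0.62) were below 0, and Fancl (0.39 ± 0.53) and Fancm (0.21 ± 0.18) above. Fancm, the translocase that anchors the core complex to DNA, had 66.3, 80.4 and 120 CPM in HU embryos and 51.4, 68.8 and 107 CPM in control embryos, and 6 of 8 HU embryos exceeded the control median. Fancb had 0, 9.18 and 17.97 CPM in HU embryos and 2.55, 10.2 and 36.6 CPM in control embryos. Fancb had the lowest fold change of the 30 genes, with an interval from -1.79 to 0.65. Fancf did not pass the filter. It had 0.347, 2.52 and 11.1 CPM in HU embryos, with a count in 8 of 8, and 0, 0.614 and 4.65 CPM in control embryos, with a count in 6 of 9. Of the pair that the core complex marks, Fancd2 had 18.8, 27.9 and 63.9 CPM in HU embryos and 11.6, 26.7 and 41.9 CPM in control embryos (0.38 ± 0.32), and Fanci had 4.58, 12.4 and 22.6 CPM in HU embryos and 2.77, 15.5 and 26.9 CPM in control embryos (-0.08 ± 0.43). For Fancd2, 2 HU embryos lay above the highest control, and for Fanci none did.

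Among the effectors, both subunits of the nuclease MUS81-EME1, which cuts branched recombination and fork intermediates, had the largest fitted fold changes of the 30 genes. Eme1 (chr11:94644996-94653964, minus strand) had 8.98, 12.4, 20.9, 29.1, 36.0, 52.9, 53.0 and 72.2 CPM in the 8 HU embryos, and 9.62, 12.3 and 40.9 CPM as lowest, median and highest of the 9 control embryos. Of the HU embryos, 7 lay above the control median, 3 above the highest control and 1 below the lowest. The log2 fold change of Eme1 was 0.90 ± 0.41, with an unadjusted p of 0.0397 and an edgeR adjusted p of 0.829. Mus81 (chr19:5482345-5488402, minus strand) had 4.98, 13.5, 23.2, 46.0, 55.1, 59.2, 67.2 and 74.3 CPM in the 8 HU embryos, and 10.4, 24.2 and 52.9 CPM as lowest, median and highest of the control embryos. Here 4 HU embryos lay above the highest control and 1 below the lowest. The log2 fold change of Mus81 was 0.72 ± 0.41 (unadjusted p 0.0922, edgeR adjusted p 0.835). Neither difference passed the test.

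The other effectors stood near 0. Slx4, the scaffold that binds MUS81-EME1, had 15.5, 40.9 and 66.0 CPM in HU embryos and 26.1, 41.6 and 73.0 CPM in control embryos (-0.06 ± 0.28). Brip1 had 3.10, 13.8 and 24.4 CPM in HU embryos and 3.51, 10.6 and 24.99 CPM in control embryos (0.04 ± 0.44). The exons of Eme1 overlap those of 2 genes on the other strand, Lrrc59 over 221 bases and Mrpl27 over 75 bases. Their log2 fold changes were 0.08 ± 0.26 and 0.63 ± 0.39, and without strand in the library the reads of the shared bases cannot be told apart. In all, 16 of the 32 genes share exon bases with a gene on the other strand in the GENCODE annotation, and for 11 of them that gene is in the count table.

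**Figure D2:**
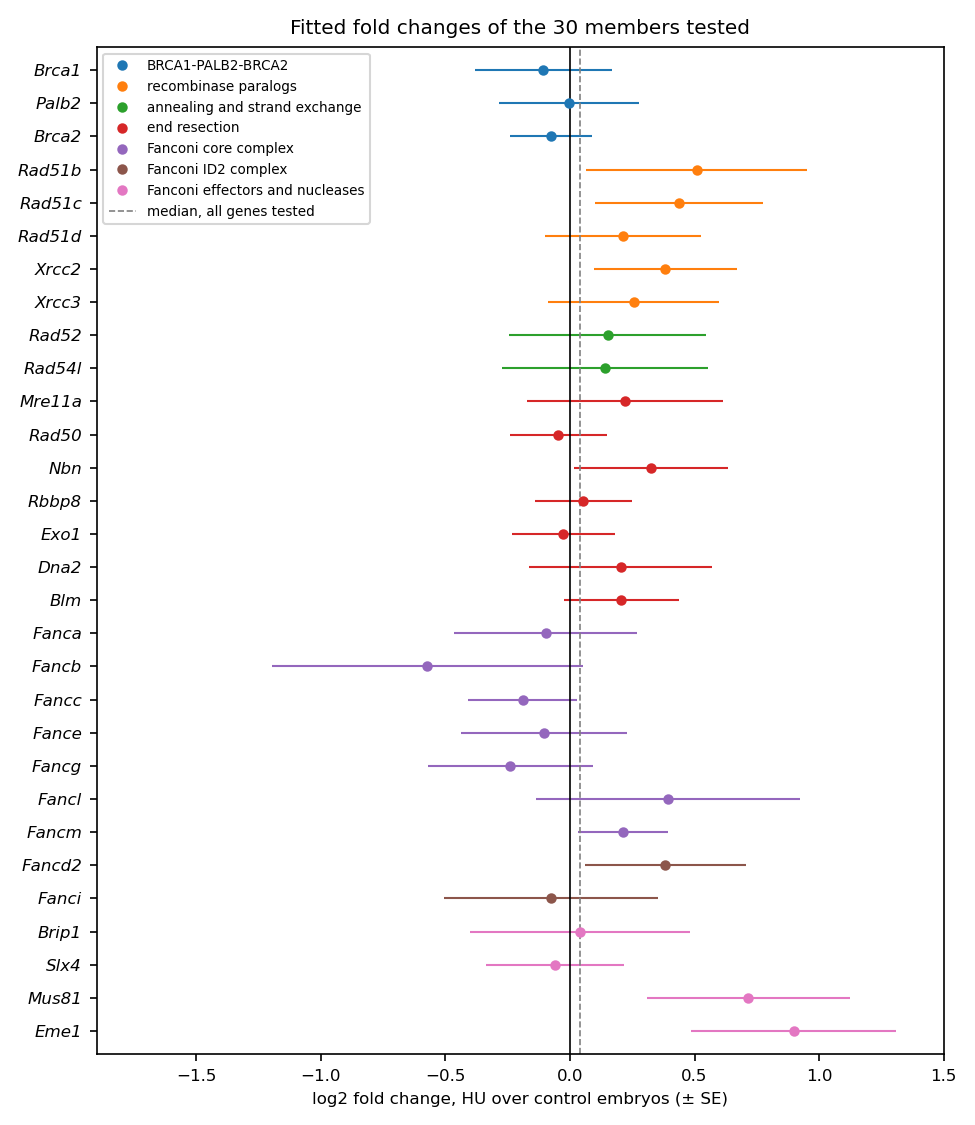
Fitted log2 fold changes (HU over control, x axis, bars ± SE) of the 30 genes tested, coloured by role, with the median of all 11476 genes as a dashed line. Eme1 (0.90) and Mus81 (0.72) lie furthest right, the 5 recombinase paralogs all lie right of 0, and no gene had an adjusted p under 0.05.

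The 4 HU embryos with the most Eme1 were also the 4 with the most 2-cell stage markers and the 4 with the most Mus81. Sp110 leads the marker sum, at 643 CPM in HU and 267 CPM in control embryos (summed counts), followed by AF067063 at 219 and 108 CPM. Zscan4c (0.363 and 1.31 CPM), Zscan4d (0.969 and 6.53 CPM) and Usp17la (0.0404 and 0.632 CPM) were low and went the other way. The other markers were higher in HU embryos. The marker level therefore follows Sp110 more than any other marker. HU embryos 3, 4, 5 and 7 had 1314, 2425, 1637 and 2669 CPM of the 10 markers in sum, and Eme1 at 36.0, 53.0, 72.2 and 52.9 CPM. HU embryos 1, 2, 6 and 8 had 271, 421, 141 and 192 CPM of the markers, and Eme1 at 8.98, 12.4, 20.9 and 29.1 CPM. Among control embryos only number 3 exceeded 1000 CPM of the markers, at 2681 CPM, and it had the highest Eme1 of its group, 40.9 CPM, but not the highest Mus81, at 28.4 CPM against 52.9 CPM in control embryo 5. In a fit with the log2 marker level as a covariate, chosen after seeing the data, the log2 fold change was 0.55 ± 0.32 for Eme1 and 0.12 ± 0.34 for Mus81, and none of the 30 genes had an unadjusted p under 0.05.

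In the same fit 4 of the 30 genes (13.3%) had a slope on the marker level with an edgeR adjusted p under 0.05, where 11% of all genes tested did (8.33% upward), so the share is near its background. All 4 slopes were upward. The slope, in log2 units per doubling of the markers, was 0.51 ± 0.09 for Dna2 (adjusted p 0.000673) and 0.46 ± 0.11 for Eme1 (adjusted p 0.0110). It was 0.52 ± 0.13 for Mus81 (adjusted p 0.0140) and 0.41 ± 0.12 for Rad54l (adjusted p 0.0314). The 5 embryos above 1000 CPM of the markers hold most of the range that these slopes span. Over the other 12 embryos (4 HU and 8 control), a fit also chosen after seeing the data, the slope was 1.16 ± 0.36 for Mus81, 0.46 ± 0.29 for Dna2, 0.26 ± 0.43 for Eme1 and -0.41 ± 0.56 for Rad54l. None of these had an edgeR adjusted p under 0.05, but the SEs are larger over these fewer embryos and their narrower range. In that fit 1 of 11476 genes passed (0.00871%), so a missed threshold there says little. Marker and gene levels come from the same libraries, and what the embryos at high marker levels share beyond them was not tested.

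**Figure D3:**
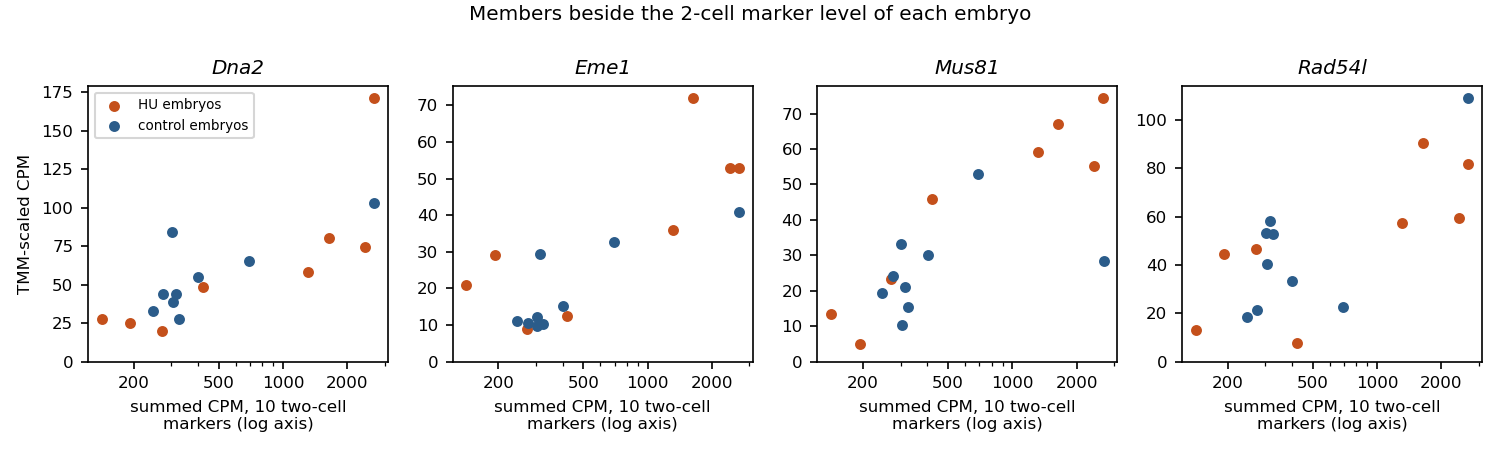
Each point is 1 embryo (HU, n = 8; control, n = 9), with the summed CPM of 10 two-cell stage markers on a log x axis and the TMM-scaled CPM of Dna2, Eme1, Mus81 or Rad54l on the y axis. The 4 HU embryos and 1 control embryo above 1000 CPM of the markers hold the highest Eme1 values, and the other 12 embryos lie at 693 CPM or less.

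The genes also differed in how evenly the embryos held them. Of the 8804 genes at 10 CPM or more in control embryos, 2.93% had a lower coefficient of variation over the 9 embryos than Rad50 (15.9%), 9.46% had a lower one than Brca2 (20.4%) and 11.6% than Fancm (21.4%). At the other end stood Eme1 (62.0%), Fanca (67.9%) and Fancb (75.7%), and 93.4% of genes varied less than Fancb. The median was 40.3% over the 27 genes of the set at that level and 38.1% over all 8804. Control means were 82.7, 359 and 73.3 CPM for Rad50, Brca2 and Fancm, against 19.2, 25.8 and 13.1 CPM for Eme1, Fanca and Fancb. The rank takes no account of level, and the part of counting noise in it was not tested. The SD of log2 levels was larger in HU than in control embryos for 16 of the 30 genes tested (53.3%), against 62.3% of all genes.

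The wider pathway was read from 2 further lists. Of 52 other homologous recombination and Fanconi genes measured, 50 were tested and none had an edgeR adjusted p under 0.05. At an unadjusted p under 0.05 stood 4 of the 50 (8%), all higher in HU embryos, beside 5.85% of all genes tested (3.81% higher), so this count too is near its background. The smallest p belonged to Ercc4, the XPF nuclease that works with SLX4, at 98.0 ± 78.1 CPM in HU embryos and 30.3 ± 17.8 CPM in control embryos (SD, n = 8 and 9; log2 fold change 1.69 ± 0.54). Mcm9, a helicase of recombination, had 67.8 ± 37.6 CPM in HU embryos and 33.3 ± 19.1 CPM in control embryos (1.03 ± 0.38). The unadjusted p was 0.00471 for Ercc4 and 0.0118 for Mcm9, and the edgeR adjusted p was 0.829 for both. The highest levels per length were those of Stra13, a partner of the FANCM complex, at 117 ± 33.5 FPKM in HU embryos and 135 ± 25.6 FPKM in control embryos, and of Rpa2, a subunit of the single-strand binding protein, at 114 ± 62.2 FPKM in HU embryos and 119 ± 50.4 FPKM in control embryos.

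Of 21 end joining and break response genes, all were tested, none had an adjusted p under 0.05 and 1 (4.76%) had an unadjusted p under 0.05, beside the 5.85% of all genes. This was Mdc1, a mediator that binds marked chromatin at breaks, at 65.2 ± 30.5 CPM in HU embryos and 43.8 ± 11.8 CPM in control embryos (0.57 ± 0.27, unadjusted p 0.0429). The next, the end joining kinase gene Prkdc, had 44.7 ± 11.5 CPM in HU embryos and 31.3 ± 15.2 CPM in control embryos (0.52 ± 0.27). The highest levels per length were those of Mad2l2, a shieldin subunit, at 65.2 ± 32.2 FPKM in HU embryos and 72.2 ± 24.9 FPKM in control embryos, and of Rif1, which limits resection, at 53.2 ± 11.9 FPKM in HU embryos and 43.6 ± 8.38 FPKM in control embryos.

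Cumulus cells, the donor cell type, held few of these transcripts. Counts of the 12 cells were summed and set against the summed counts of the 9 control embryos as CPM, for genes at 5 CPM or more in either group. Of the 31 genes kept, 22 (71.0%) were at least 4-fold lower in cumulus cells, where 39.5% of 11811 genes were. Only Fancf was at least 4-fold higher, where 10.8% of genes were. These counts follow how a gene came to be kept. Of the 31, 21 were kept through the embryos alone, of which 19 (90.5%) were at least 4-fold lower in cumulus cells, where 88.3% of the 3568 genes kept that way were. Another 9 were kept through both groups, of which 3 (Rad50, Rbbp8 and Slx4) were at least 4-fold lower, where 21.4% of 7104 genes were, and none of the 9 was without Rn45s. Fancf was kept through the cells alone. So the share of 71.0% is set largely by the filter, and nothing is read from it about the set. The median log2 ratio (cumulus over control) was -4.30 over the 31, against -1.28 over all genes kept, and moves with the same filter. A cell held 2 to 16 of the 32 genes, with a median of 9. Over all gene rows, 4054 to 8629 genes were detected in a cumulus cell, 12887 to 15421 in an HU embryo and 13875 to 15132 in a control embryo. Fewer genes of any kind were thus found in the cells. At a common depth of 152332 counts without Rn45s the expected number of the 32 was 1.75 to 13.7 in cumulus cells. It was 27.6 to 30.1 in HU embryos and 27.6 to 29.96 in control embryos, and was not computed for all genes.

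The counts of genes depended on the scaling. Without Rn45s, 18 of the 31 genes were at least 4-fold lower in cumulus cells, and 29.2% of all genes were. Rad50, Rbbp8, Fancg and Slx4 lost the 4-fold difference there. Per ERCC spike-in count, 30 of the 31 and 86.1% of all genes were at least 4-fold lower in cumulus cells, and Fancf turned to a log2 ratio of -1.20. Whether this scaling follows the amount of RNA was not tested. Cumulus cells had 0.360 to 3.04 gene counts per spike-in count, against 10.8 to 19.2 in control embryos. The intervals and floors given next reflect counting alone.

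Transcripts of the loading complex were sparse in cumulus cells. Brca2 gave 89 counts, 3.70 CPM (95% Poisson interval 2.97 to 4.55), against 360 CPM in control embryos, and 66 of the 89 counts came from cumulus cell 9. Brca1 gave 8 counts in 2 cells, 7 of them in cumulus cell 6, which is 0.333 CPM against 28.5 CPM in control embryos. Palb2 gave 1 count against 45.3 CPM, a 1089-fold lower level with a counting interval from 195-fold to 43009-fold. Bard1 had no count in any cell, against 4.64 CPM in control embryos. That is 37.2-fold lower at a floor of 3 counts over the group, and at least 30.2-fold by the 95% Poisson interval. The log2 ratio was -6.60 for Brca2, or -8.39 without cumulus cell 9, and -6.42 for Brca1, or -9.16 without cumulus cell 6. Without Rn45s in the totals the value of Bard1 at the floor is 19.7-fold.

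Recombinase paralogs and annealing genes were uneven. Rad51c and Xrcc2 had no count in any cell, at least 130-fold and 211-fold below control embryos at 16.2 and 26.3 CPM (68.8-fold and 112-fold without Rn45s in the totals). Rad51d was found in 7 of 12 cells at 16.0 CPM, against 23.4 CPM in control embryos, and reached 236 CPM in cumulus cell 10, the shallowest library. Rad51b came from cumulus cell 8 alone (53 counts) and Xrcc3 from cumulus cell 12 alone (20 counts), at log2 ratios of -1.91 and -4.60, and without these cells neither gene had a count. Rad52 was found in 7 cells at 13.1 CPM, against 9.86 CPM in control embryos, while Rad54l gave 14 counts in 3 cells, 12 of them in cumulus cell 8, which is 0.582 CPM against 43.6 CPM in control embryos. Without that cell the log2 ratio of Rad54l goes from -6.23 to -8.86.

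End resection genes are given here as those that start the trimming and those that extend it. Of the first kind, Rad50 and Rbbp8 each had counts in 9 of 12 cells, at 12.7 and 17.04 CPM in cumulus cells against 82.6 and 99.2 CPM in control embryos. Nbn had 18.1 CPM in cumulus cells against 21.6 CPM in control embryos, and Mre11a 13.5 CPM against 20.0 CPM, from 7 and 4 cells. Cumulus cell 8 held 172 of the 325 Mre11a counts, and the log2 ratio of Mre11a is -0.57 with it and -1.48 without it. Of the second kind, Exo1 and Blm gave 2 counts each, both from cumulus cell 3, and Dna2 gave 25, of which 24 were in cumulus cell 11 (log2 ratio -5.70, or -10.24 without that cell). Exo1 was 1079-fold lower than the 89.7 CPM of control embryos (counting interval 299-fold to 8908-fold) and Blm 516-fold lower than 42.9 CPM (143-fold to 4257-fold). The split was seen in the values and was not tested.

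In the Fanconi core complex, Fance was found in 8 cells at 17.6 CPM, against 20.4 CPM in control embryos. Fancm had 2 counts in cumulus cells against 74.4 CPM in control embryos, an 895-fold lower level (counting interval 248-fold to 7392-fold). The counts of Fancm, Fanca (23) and Fancb (17) all came from cumulus cell 2, the cell with few cumulus markers, and without it 8 of the 32 genes had no count in any cell. Fancc gave 67 counts in 3 cells, Fancg 111 in 3 and Fancl 54 in 3, at log2 ratios of -4.30, -2.28 and -1.32. The ratio of Fancg is -3.87 without cumulus cell 1, which held 78 of its counts. That of Fancl is -2.32 without cumulus cell 3 and -1.91 without cumulus cell 9, which held 30 and 22. Fancf had 6.48 CPM in cumulus cells (4 cells) and 1.31 CPM in control embryos, a log2 ratio of 2.31, and 84 of its 156 counts came from cumulus cell 8, without which the difference was under 4-fold. Its exon overlaps that of Gas2 on the other strand over 253 bases, and Gas2 had 10.3 CPM in cumulus cells and 0.337 CPM in control embryos.

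Of the pair marked by the core complex, Fancd2 had no count in any cell, at least 212-fold below the 26.4 CPM of control embryos (112-fold without Rn45s in the totals). Fanci gave 24 counts in 4 cells, 14 of them in cumulus cell 3, which is 0.998 CPM against 14.3 CPM (log2 ratio -3.84, or -4.94 without that cell). The 2 nuclease subunits parted in the cells. Mus81 was found in 9 of 12 cells at 29.4 CPM (interval 27.3 to 31.6), against 26.3 CPM in control embryos. Eme1 gave 1 count against 18.5 CPM, a 446-fold lower level (counting interval 80.1-fold to 17620-fold). Eme2, the other partner of MUS81, had 5.20 CPM in cumulus cells, in 7 cells, and 0.379 CPM in control embryos; it is named for this pairing after its values were seen. Mus81 shares 173 exon bases with Efemp2 on the other strand, a gene at 43.1 CPM in cumulus cells and 2.23 CPM in control embryos, and reads of the shared bases cannot be told apart. Slx4 had 6.48 CPM in cumulus cells against 43.7 CPM in control embryos, and 81 of its 156 counts came from cumulus cell 2 and 64 from cumulus cell 3. Its log2 ratio was -2.75, or -3.72 without cumulus cell 2 and -3.35 without cumulus cell 3. Brip1 had no count in any cell, at least 97.3-fold below 12.1 CPM (51.5-fold without Rn45s in the totals).

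**Figure D4:**
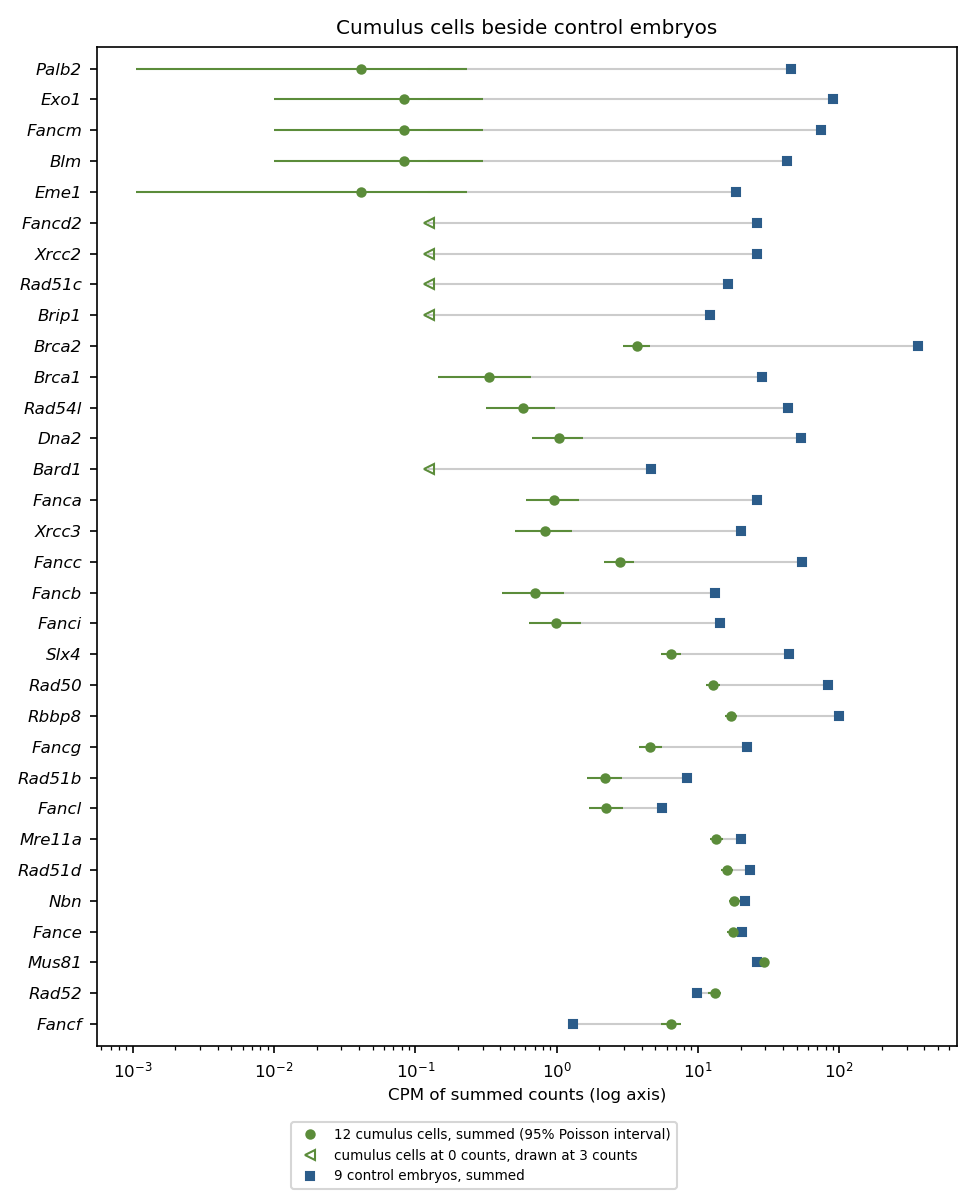
CPM of summed counts on a log x axis for 12 cumulus cells (green circles with 95% Poisson intervals; open triangles are genes at 0 counts, drawn at 3 counts) and 9 control embryos (blue squares), ordered by ratio. Palb2 and Exo1 at the top lie about 3 powers of 10 lower in cumulus cells, while Mus81, Rad52 and Fancf at the bottom lie to the right of the control embryos.

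Across cells, 5 genes had no count in any of the 12, 20 were found in 1 to 4 cells and 7 in 7 to 9 cells, and none in 5 or 6. The 7 were Rad51d, Rad52, Rad50, Nbn, Rbbp8, Fance and Mus81. Of all 24448 gene rows, 10283 had no count in any of the 12 cells, which takes in genes at 0 in embryos too. The number of cells per gene was not computed for all genes, so these counts are not read as a trait of the set. Proliferation markers moved with the set: the 15 markers summed to 57.0 to 274 CPM in cumulus cells, 2408 to 5666 CPM in HU embryos and 2699 to 4232 CPM in control embryos. Of these, 12 of 15 were at least 4-fold lower in cumulus cells than in control embryos, with Top2a, Ccna2 and Birc5 at 0 in all 12 cells. Oocyte markers moved with it too, with 13 of 13 kept at least 4-fold lower in cumulus cells and 8 of 14 at 0. Through the embryos alone were kept 10 of the 15 proliferation markers and 12 of the 13 oocyte markers, so these counts too follow the filter. The part of either marker list in the difference was not tested. In the other recombination and Fanconi list 29 of 48 genes kept (60.4%) were at least 4-fold lower in cumulus cells and 2 higher. In the end joining list 8 of 21 (38.1%) were lower, beside 39.5% of all genes kept. Of the 48, 16 were kept through the embryos alone, and of the 21 only 4 were. These shares also follow the filter, so nothing is read from the difference between the lists.

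**Figure D5:**
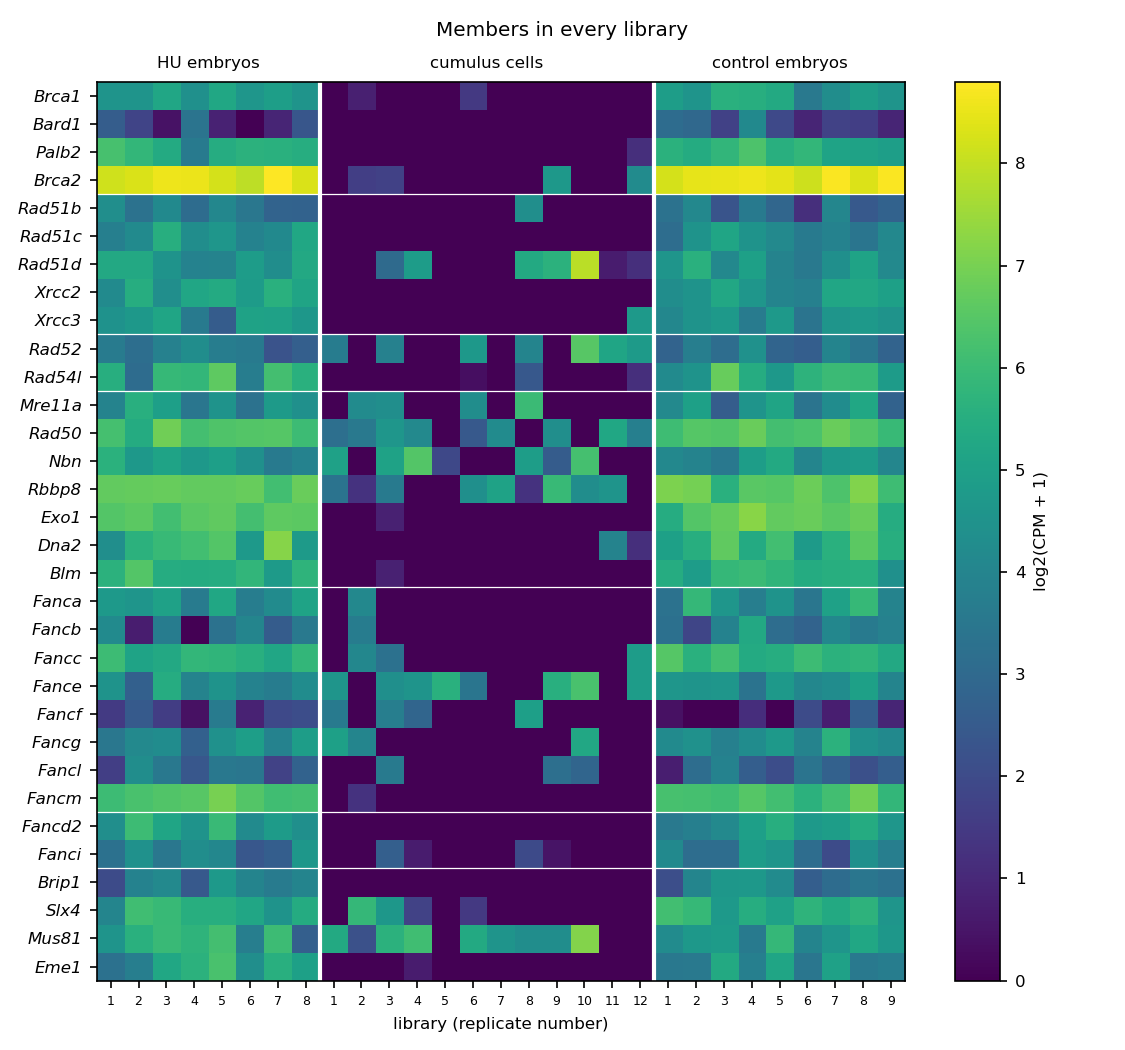
Colour gives log2(CPM + 1) of the 32 genes (rows, by role) in each library (columns): 8 HU embryos, 12 cumulus cells and 9 control embryos. Embryo columns are filled for nearly every gene, while cumulus cells hold 2 to 16 genes each and the scattered cells with a count differ from gene to gene.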

How the data were processed

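RNA was measured in 29 Smart-seq2 libraries (8 HU embryos, 12 cumulus cells, 9 control embryos), grouped by their GEO titles. The authors deposited raw counts per gene and FPKM values. The mm10 build, STAR 2.7.3a, FastQC and R 4.0.2 are named per the submitters' processing notes. Which counter, gene annotation and strand setting were used is not given in the sources used here, and Smart-seq2 does not mark strand. The deposited FPKM equalled the count over the library sum without the 92 ERCC rows and over 1 length per gene for 18588 of 18588 genes checked (tolerance 0.001), so it holds no further normalization. ERCC rows stayed out of library sizes and tests, and no deposited column was left unmapped.

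HU and control embryos were compared with edgeR 4.0.16 (quasi-likelihood F test, TMM, filterByExpr, 17 embryos) in R 4.3.3, adjusted by Benjamini-Hochberg over all 11476 genes, threshold 0.05, 2-sided; SEs come from the F statistic. DESeq2 1.42.0 and limma 3.58.1 were alternatives, with other scalings, filters and leaving out each embryo. Counts of the 12 cells were summed as 1 sample with exact 95% Poisson intervals, a minimum of 5 CPM in either group and a floor of 3 counts over the group. No 2 libraries of a group agreed within sampling noise. Exon overlaps and positions come from GENCODE M21 (GRCm38), promoters from RefSeq.

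The rule named all 32 genes and, of each other list, the 2 genes with the smallest unadjusted p and the 2 with the highest mean FPKM in control embryos, since none passed. The members and lists were chosen with earlier results of these data known.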

Additional observations from a re-analysis of the deposited data

Results flagged for a closer look

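For each of the 32 genes and both groups of embryos, a single embryo far from its group was looked for with Dixon's test at 95%. The test was run on log2 of TMM-scaled CPM plus 1, and unlogged values can mark other groups. It marked 3 of 64 groups (4.69%), where chance marks about 1 in 20. Palb2 was lowest in HU embryo 4 at 11.8 CPM, with the next HU embryo at 39.6 CPM. Fance was lowest in control embryo 4 at 8.85 CPM, with the next control embryo at 16.7 CPM. Fancg was highest in control embryo 7 at 45.5 CPM, with the next control embryo at 23.6 CPM. All values printed here are TMM-scaled CPM before the log.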

How the results depend on the processing

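For HU against control, none of the genes of the set had an adjusted p under 0.05 under any of 27 other settings, and the median log2 fold change stayed above 0. The number at an unadjusted p under 0.05 was 0 with library size only, all 3 groups in the fit, limma-voom, the deposited FPKM or the 2-cell marker covariate, and 0 to 2 when 1 embryo was left out. Of the 30 genes, 15 kept the sign of the fold change under every setting. The settings refit the same embryos and the share of all genes that kept their sign was not computed. The count is therefore not read as a result about the set. With ERCC counts as library sizes 28 of 30 fold changes were above 0, where 69.4% of all genes were. The median of all genes shifted to 0.19, against 0.25 for the set. Of all genes at an unadjusted p under 0.05, 437 were higher and 234 lower in HU embryos, against 351 and 291 with library size only and 629 and 27 with ERCC counts. The embryos' numbers do not pair them: same-numbered embryos correlated at -0.102 to 0.188, and 1 of 8 HU embryos correlated best with its own number. With a replicate block 0 genes of the set were called, 1 had an unadjusted p under 0.05, their median was 0.09, and 536 genes in all had an unadjusted p under 0.05, against 671 without the block.

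For cumulus cells against control embryos the number at least 4-fold lower was 18 to 30 under all settings and 22 to 23 with 1 cell left out. The number at least 4-fold higher was 0 with the mean over cells, per ERCC count or against HU embryos, and 0 to 1 with 1 cell left out. The median log2 ratio was -3.71 for the mean over cells, -3.99 with TMM, -3.38 without Rn45s, -7.81 per ERCC count, -4.76 without cells 2 and 10 (chosen after seeing the data), and -4.78 to -4.03 with 1 cell left out. Fancf turned to -1.20 per ERCC count, a scaling that lowers the log2 ratio of every gene by the same amount. The cause of the fewer gene counts per spike-in count in cumulus cells was not tested. For 19 of the 32 genes, leaving out 1 cell moved the ratio by over 1.5 times. Among them Palb2, Exo1, Blm, Fancm and Eme1 had 1 or 2 counts in all, from 1 cell. Without that cell their ratio rose, because the floor of 3 counts exceeds the counts seen. For the others the ratio fell. The levels of these genes in the donor cell type are limited by the 12 cells.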
